A study of Homo sapiens with 2 samples.

Results

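The genes around GLRX3 at the end of the long arm of chromosome 10 (10q26) were compared in 1 RNA-seq library of H2087 cells and 1 of H596 cells. The members were the genes with a protein-coding RefSeq transcript (NM_) that started on chromosome 10 between 124608610 and 135234174 (hg19), from FAM24B to the end of MTG1, without GLRX3 itself. They numbered 64 of the 19368 genes with such a transcript, 38 before GLRX3 and 26 after it in the direction of the chromosome. The window was chosen by the measured values, because the neighbours of GLRX3 had lower values in H596 than in H2087, so the counts and medians over its members are a description and carry no test.

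H2087 and H596 are established human cell lines, both labelled lung adenocarcinoma, untreated and grown in RPMI medium with fetal bovine serum. Each line was represented by 1 library, so no difference between the lines had a replicate check, no p-value was computed, and a difference may belong to the line, the culture or the library. The libraries held 46961500 (H2087) and 55387847 (H596) estimated counts. Levels are given as FPKM, fragments scaled by transcript length and by library size, and differences as log2(FPKM + 1), H596 minus H2087, over genes whose FPKM averaged 1 or more in the 2 libraries, here called tested genes. This scale understates the differences of low genes, and the ratios of FPKM beside it do not. Intervals (95%, Wilson) of FPKM values were taken on the fraction of a library's counts that fell on a gene. Those of ratios were taken on the share of H2087 in the gene's counts of both libraries, converted to a ratio of FPKM. Both cover counting error only. The median difference of all 11904 tested genes was 0.11.

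The markers of the labelled cell type differed between the lines. For NKX2-1, the lineage factor of lung adenocarcinoma, H2087 reached 110.0 FPKM and H596 0.508, and for NAPSA, an aspartic protease of alveolar cells, the values were 21.9 and 0.0645. The squamous markers were high in H596, with TP63 at 0.183 in H2087 and 55.2 in H596, and KRT5 listed at 0 in H2087 and at 106 in H596. The other glandular markers did not follow, with MUC1 at 86.0 and 102, KRT7 at 791 and 608, and SFTPB at 0.123 in H2087 and 0 in H596, so 2 of the 4 tested glandular markers were at least 2-fold lower in H596 and 0 higher. Of the squamous list, 4 of 5 genes were at least 2-fold higher in H596, and its summed FPKM was 40.8 in H2087, of which SOX2 made up 39.1, and 305 in H596. The part of this difference in cell state in the values of the 10q26 genes was not tested. Of the blood markers, PTPRC, CD3E and HBB had no count in either library.

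The 10q26 region mixes housekeeping genes with genes used in few tissues. It holds enzymes of mitochondrial and amino acid metabolism, parts of the mitotic checkpoint and of DNA repair, the proliferation marker Ki-67, and a set of homeobox and other developmental regulators that are silent in most adult cells. GLRX3, the gene the window was drawn around, encodes a monothiol glutaredoxin that handles iron-sulfur clusters. Neighbouring genes share a chromosome copy number and in part a chromatin environment, but each has its own promoter.

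Of the 64 members, 39 were tested and 25 were below that level. The tested members had a median FPKM of 11.2 in H2087 and 7.45 in H596. The summed FPKM of all members was 1212 in H2087 and 480 in H596, and their share of all counts was 0.308% and 0.155%. Among the tested members, 16 (41.0%) were at least 2-fold lower in H596, against 14.1% of all tested genes, and 1 was at least 2-fold higher, against 18.0%. A value below 0, of any size, was found for 32 members (82.1%), against 45.0% of all tested genes. Their median difference was -0.69, with a range from -3.60 (NKX1-2) to 2.25 (DPYSL4). Because lower values in H596 were what chose the window, nothing is read from these shares. The counting intervals of the FPKM values lay apart in 28 tested members that were lower and 5 that were higher in H596, against 40.3% and 49.5% of all tested genes, and overlapped in 6 (CHST15, UROS, FANK1, LRRC27, PAOX and MTG1). At this depth the intervals of most tested genes lay apart.

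**Figure D1:**
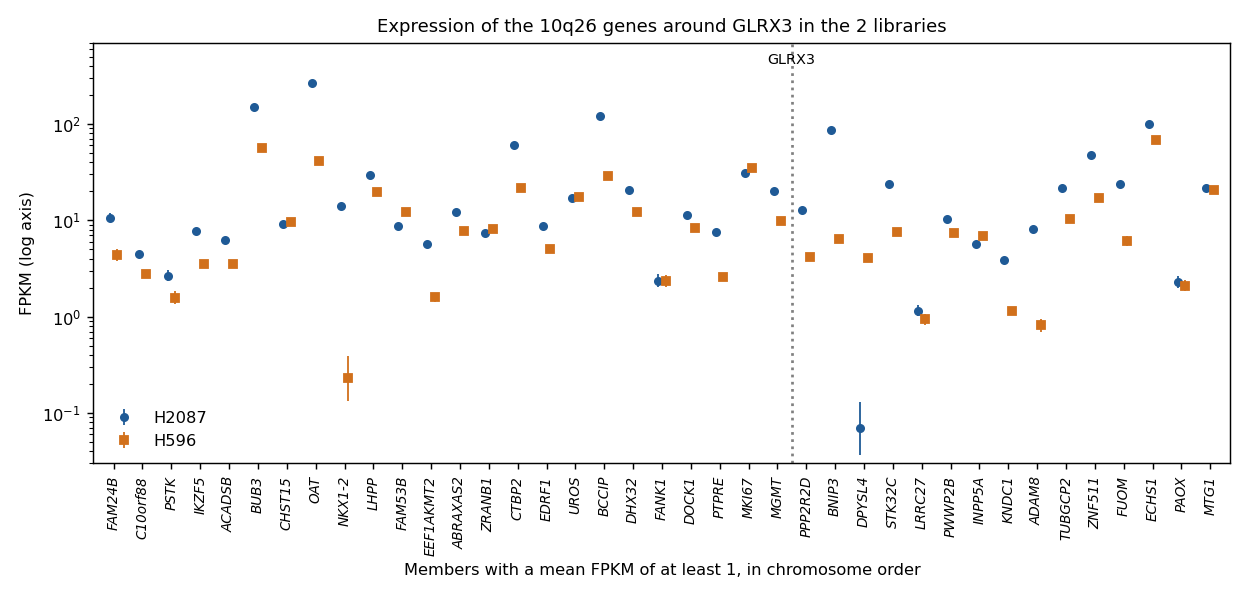
FPKM (log axis) of the 39 tested members in H2087 (circles) and H596 (squares), in chromosome order, with 95% Wilson intervals that cover counting error only and are often smaller than the symbol. The circles of OAT, BUB3 and BCCIP stand above 100 and no square does, and DPYSL4 is the member with its square far above its circle.

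An FPKM of at least 100, the level that the study used to call a gene highly expressed, was reached by 3 members in H2087 (OAT, BUB3 and BCCIP) and by 0 in H596. Over all genes with a protein-coding transcript, 3.55% reached it in H2087 and 3.20% in H596. ECHS1 came next in H2087, at 99.2, and was the highest member in H596, at 68.0. The 5 highest members of each library held 60.1% of the members' summed FPKM in H2087 and 47.9% in H596.

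Among the enzymes of mitochondria and metabolism, 9 members were all tested, with a median difference of -0.54. Of these, 2 were at least 2-fold lower in H596 and 0 higher. Over all tested genes, 14.1% were at least 2-fold lower and 18.0% higher, and of all tested members 41.0% were lower. The same shares apply beside the counts of each list below, and nothing is read from those counts. OAT (chr10:126085872-126107545) encodes ornithine aminotransferase, the mitochondrial enzyme that links ornithine to glutamate and proline. Its FPKM was 269 in H2087, the highest of all members, and 41.0 in H596. The ratio was 6.56 (interval, 6.36 to 6.76), and the difference on the log2 scale was -2.68. FUOM, a fucose mutarotase, stood at 23.9 and 6.07, a ratio of 3.94 (3.43 to 4.53). ECHS1, which hydrates short-chain enoyl-CoA in fatty acid and branched-chain amino acid breakdown, was nearer to equal, at 99.2 and 68.0, a ratio of 1.46 (1.41 to 1.51). ACADSB, the dehydrogenase of short branched-chain acyl-CoA, had 6.22 and 3.50, and LHPP, a phosphatase, 29.3 and 19.8. The selenocysteine tRNA kinase gene PSTK had 2.67 and 1.57. UROS, an enzyme of heme synthesis, stood at 16.9 in H2087 and at 17.4 in H596, with overlapping intervals. The polyamine oxidase PAOX (2.28 and 2.09) and MTG1, a GTPase of the mitochondrial ribosome (21.7 and 20.4), were likewise within counting error of each other. The members of metabolism thus ranged from a more than 6-fold gap to none that these counts could show.

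The list of mitosis, DNA repair and ubiquitin genes had 7 members, all tested, with 3 at least 2-fold lower in H596, 0 higher and a median of -0.97. BUB3, which holds the spindle checkpoint proteins at kinetochores, stood at 150.1 FPKM in H2087 and at 56.7 in H596, a ratio of 2.65 (2.58 to 2.72). BCCIP, a BRCA2-binding protein, had 122 and 29.2, a ratio of 4.19 (4.01 to 4.39). TUBGCP2, a subunit of the gamma-tubulin ring that seeds microtubules, had 21.9 and 10.3, and at a difference of -1.03 it was just past 2-fold. MGMT, the enzyme that removes alkyl groups from guanine, was expressed in both lines, at 20.2 in H2087 and 9.84 in H596, and at -0.97 lay just short of 2-fold. MKI67, the gene of the Ki-67 antigen of dividing cells, was close to equal, at 31.1 and 35.4 with a difference of 0.18. The deubiquitinase gene ZRANB1 was close too, at 7.31 and 8.07, and ABRAXAS2, the scaffold of the BRISC deubiquitinase complex, had 12.1 and 7.72. MKI67, although close to equal, stands between PTPRE (-1.27) and MGMT (-0.97), and ZRANB1 between ABRAXAS2 (-0.59) and CTBP2 (-1.42).

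Of 13 transcription factors and cofactors, 5 were tested, 3 at least 2-fold lower in H596 and 0 higher, with a median of -1.42. NKX1-2 (chr10:126135998-126138550), a homeobox gene next to OAT, had 649 counts in H2087 and 13 in H596. Its FPKM was 13.9 in H2087 and 0.230 in H596, a ratio of 60.7 with a wide counting interval (35.3 to 104). CTBP2, a corepressor, had 60.0 and 21.8, and ZNF511, a zinc finger gene, 47.6 and 17.1. IKZF5, an Ikaros family zinc finger gene, had 7.79 and 3.51. Almost all of the IKZF5 signal was assigned to transcripts that RefSeq lists as noncoding (NR_), and its protein-coding transcript had 0 counts in H2087 and 1 in H596, so its coding level is not known from these values. EDRF1, a regulator of erythroid genes, had 8.70 and 5.02. The other 8 genes of this list were near silence in both lines, as given further on.

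The proteases held 1 expressed member. ADAM8, a membrane-anchored metalloprotease, had 1276 counts in H2087 and 149 in H596, an FPKM of 8.12 and 0.811 and a ratio of 10.0 (8.45 to 11.9). ADAM12 and MMP21 were listed at 0 in both libraries, and the carboxypeptidase relative CPXM2 had 6 counts in H2087 and 0 in H596.

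The signalling enzymes and regulators had 9 members, all tested, with 5 at least 2-fold lower in H596, 0 higher and a median of -1.18. BNIP3 (chr10:133781187-133795517) encodes a protein of the outer mitochondrial membrane that promotes mitophagy and is a known target of hypoxia-inducible factors. It had 6795 counts in H2087 and 588 in H596. Its FPKM was 86.8 in H2087 and 6.34 in H596, a ratio of 13.7 (12.6 to 14.9). PPP2R2D, a regulatory subunit of the phosphatase PP2A, had 13.0 and 4.19. The kinase gene STK32C had 23.6 and 7.53, a log2 difference of -1.53 that was -2.20 with TMM-scaled counts and -1.16 over its protein-coding transcripts only. PTPRE, a protein tyrosine phosphatase, had 7.65 and 2.58, and KNDC1, a guanine nucleotide exchange factor best known from brain, 3.87 and 1.14. FAM53B (8.73 and 12.3) and the inositol phosphatase gene INPP5A (5.62 and 6.80) were higher in H596 by less than 2-fold, and DOCK1, an activator of RAC, had 11.2 and 8.25. The helicase relative DHX32 stood at 20.8 and 12.2.

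DPYSL4 (chr10:134000414-134019280), of the dihydropyrimidinase-like family known from growing axons, was the 1 tested member of the 9 neural and receptor genes. It had 9 counts in H2087 and 631 in H596. Its FPKM was 0.0691 in H2087 and 4.08 in H596, so H596 was 59.1-fold higher (31.0 to 113). It lies between BNIP3 and STK32C, both of which were at least 2-fold lower in H596. JAKMIP3, the gene between BNIP3 and DPYSL4, had 241 counts in H2087 and 0 in H596. Its FPKM was 0.762 in H2087 and 0 in H596, below the level for testing. It was at least 83.5-fold higher in H2087 when the lower end of its interval is set against 3 counts in H596. Adjacent genes thus differed in opposite directions, BNIP3 and JAKMIP3 toward H2087 and DPYSL4 toward H596.

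The 13 members outside these lists had 7 tested genes, 2 of them at least 2-fold lower, 0 higher, with a median of -0.42. EEF1AKMT2, a methyltransferase of elongation factor eEF1A, had 5.62 and 1.58, and FAM24B, the first member of the window, 10.7 and 4.35. CHST15, a sulfotransferase of chondroitin sulfate, had 9.22 and 9.68, and FANK1 had 2.36 and 2.34. C10orf88 (4.47 and 2.78) and PWWP2B (10.3 and 7.45) were lower in H596 by less than 2-fold, and LRRC27 (1.15 and 0.939) was within counting error.

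The sequences just upstream of 4 members are given because OAT and NKX1-2 are neighbours on the minus strand that were both far lower in H596, and BNIP3 and DPYSL4 lie close together with differences of opposite sign. Each is the 150 bases before the most upstream start of a protein-coding transcript, read on the strand of the gene, from the GRCh37 (hg19) genome. Capitals mark 3 motifs on either strand, the CCAAT box by the letters of its name, the GC box by GGGCGG and the core of the hypoxia response element by ACGTG, and neighbouring GC boxes may share letters.
OAT, chr10:126107546-126107695, minus strand: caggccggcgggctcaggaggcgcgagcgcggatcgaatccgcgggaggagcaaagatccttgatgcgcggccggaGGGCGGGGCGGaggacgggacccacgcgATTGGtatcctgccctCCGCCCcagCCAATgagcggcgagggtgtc
NKX1-2, chr10:126138551-126138700, minus strand: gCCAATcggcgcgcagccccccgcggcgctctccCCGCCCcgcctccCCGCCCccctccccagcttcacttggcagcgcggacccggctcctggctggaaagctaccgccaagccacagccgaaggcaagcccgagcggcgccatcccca
BNIP3, chr10:133795518-133795667, minus strand: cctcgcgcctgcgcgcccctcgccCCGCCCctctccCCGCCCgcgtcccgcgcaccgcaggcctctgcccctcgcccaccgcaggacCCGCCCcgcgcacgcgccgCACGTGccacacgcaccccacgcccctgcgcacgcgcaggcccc
DPYSL4, chr10:134000264-134000413, plus strand: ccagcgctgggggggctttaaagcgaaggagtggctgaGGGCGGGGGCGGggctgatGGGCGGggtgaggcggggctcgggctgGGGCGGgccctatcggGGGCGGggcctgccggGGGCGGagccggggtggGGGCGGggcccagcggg
All 4 sequences were rich in G and C, with 72% in OAT, 76% in NKX1-2, 84% in BNIP3 and 81.3% in DPYSL4. DPYSL4 held 7 GC boxes, OAT and BNIP3 3 each and NKX1-2 2. OAT held 2 CCAAT boxes and NKX1-2 held 1. In BNIP3 the palindrome CACGTG holds the hypoxia core on both strands, and the other 3 sequences hold no such core. These matches are letters in a window and say nothing of binding in these cells.

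Along the window the differences were uneven. Before GLRX3, 24 members were tested, 8 were at least 2-fold lower in H596 and 0 higher, with a median of -0.69. After GLRX3, 15 were tested, 8 lower and 1 higher, with a median of -1.03, and no test of the difference between the sides was made. GLRX3 itself (chr10:131934639-131978646) stood at 145 FPKM in H2087 and at 35.6 in H596, a difference of -1.99. The nearest members lay far from it, and EBF3, 173 kb before it, and TCERG1L, 912 kb after it, had no count in either library. MGMT, 369 kb before it, was the nearest expressed member, followed by PPP2R2D at 1769 kb after it, BNIP3 at 1803 kb after it and MKI67 at 2010 kb before it. GLRX3, at -1.99, thus stood between MGMT at -0.97 and PPP2R2D at -1.43 as its nearest expressed neighbours, in a gene-poor stretch. At the far end, from KNDC1 to MTG1, all 8 tested members lay below 0, 5 of them at least 2-fold, with a median of -1.11. Among them PAOX and MTG1, both at -0.08, were within counting error. INPP5A, the last tested member before KNDC1, lay at 0.24. Lower values were what chose the window, so nothing is read from this stretch.

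**Figure D2:**
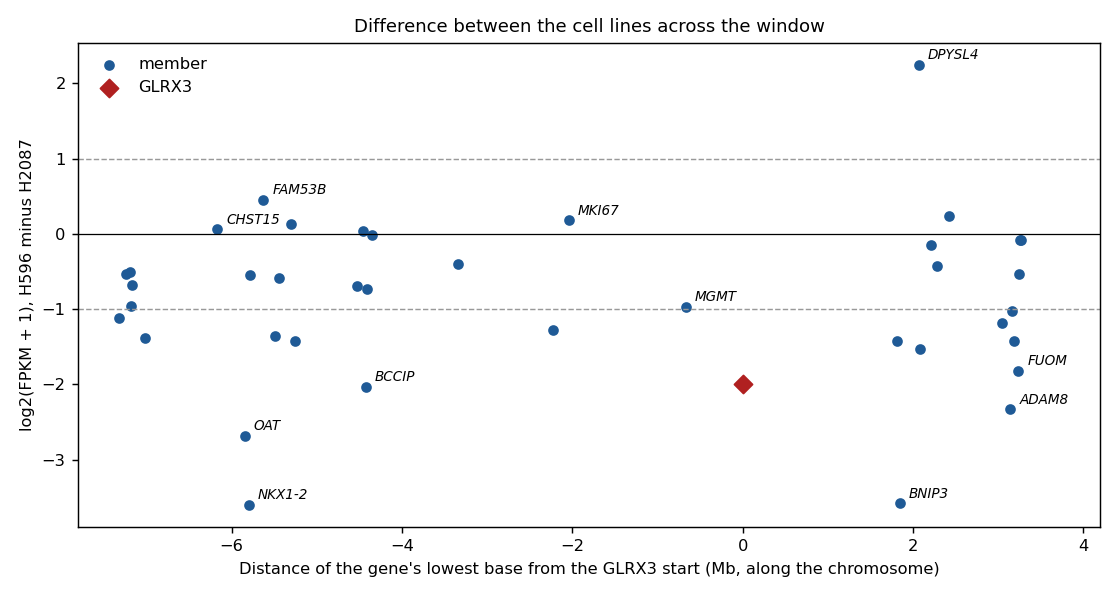
Difference of log2(FPKM + 1), H596 minus H2087, of each tested member (circles) and of GLRX3 (diamond) against the distance of its lowest base from the GLRX3 start in Mb, with dashed lines at 2-fold. NKX1-2 and BNIP3 lie near -3.60, on opposite sides of GLRX3, and DPYSL4 alone lies above the upper dashed line.

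The window, chosen by the measured values, ran from the start of FAM24B to the end of MTG1. The nearest tested genes before it, PLEKHA1 and HTRA1, were higher in H596, with differences of 2.18 and 3.15. FAM24B, the first member, lay at -1.13. Just outside the first member, CUZD1 had 172 counts in H2087 and 0 in H596, an FPKM of 1.57 and 0, and C10orf120 had none in either library. Just inside, FAM24B had 10.7 and 4.35, and FAM24A was listed at 0 in both. At the far end, MTG1 was within counting error and SPRN was listed at 0, while the next gene outside, CYP2E1, had 0.347 in H2087 and 0.961 in H596. No gene with a protein-coding transcript beyond the window reached the level for testing.

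The rest of chromosome 10 lay on the same side of 0, at a smaller size. Of its 651 genes outside the window, 414 were tested, 97 (23.4%) were at least 2-fold lower in H596 and 46 (11.1%) higher, with a median of -0.36. In the 10 Mb just before the window, 7 of 35 tested genes were lower and 8 higher, with a median of -0.35. The short arm had a median of -0.41 over 98 tested genes, and the long arm outside the window one of -0.34 over 316. In steps of 10 Mb from the window back to the start of the chromosome, all 13 medians were below 0, from -0.02 to -1.06, and the lowest, at the tip of the short arm, rested on 9 tested genes and without it the lowest was -0.64. The chromosome as a whole, at -0.40, had the third lowest median of 23 chromosomes, above chromosomes 5 (-0.58) and 12 (-0.48). Copy number was not measured here, and its part in these values was not tested.

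**Figure D3:**
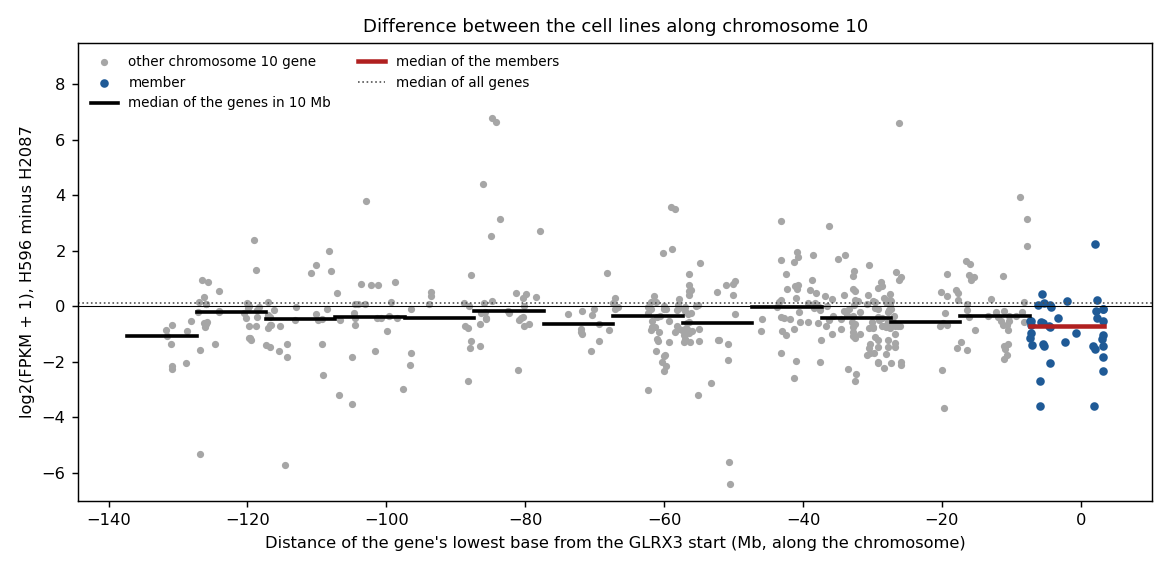
Difference of log2(FPKM + 1), H596 minus H2087, of the tested genes of chromosome 10 against the distance of the lowest base from the GLRX3 start in Mb, with members in blue, other genes in grey and medians of 10 Mb steps as black bars. The members' median (-0.69, red bar) lies below 0, as do the medians of all 13 steps, and single genes scatter widely about each.

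The members are part of all tested genes, whose differences ranged from -8.76 to 11.44.

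**Figure D4:**
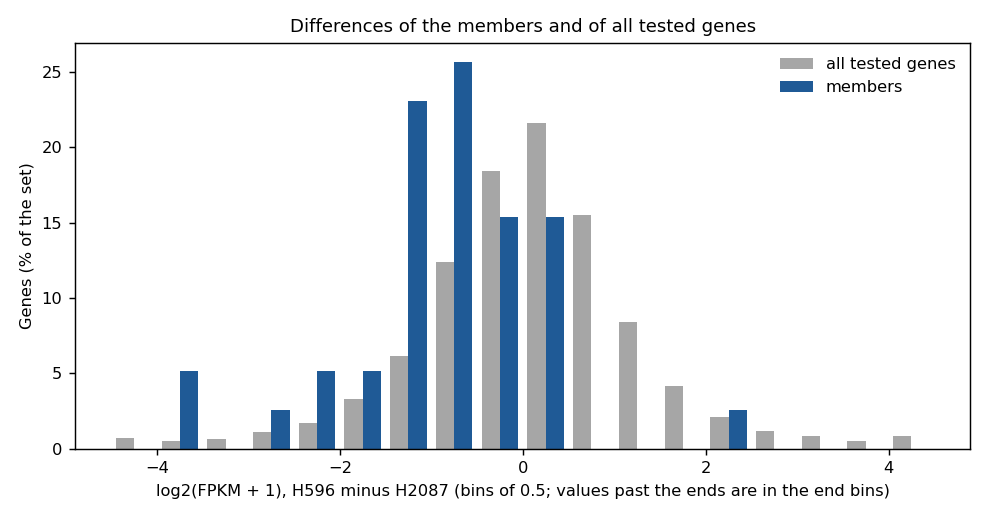
Share of the 39 tested members (blue) and of all 11904 tested genes (grey) in bins of 0.5 of the difference in log2(FPKM + 1), H596 minus H2087, with values past the ends in the end bins. The members' bars stand mostly between -1.5 and 0, and the grey bars are highest on either side of 0.

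Which transcript of a gene was used was not part of the choice of the window. Of 27 tested members with 2 or more listed transcripts, 4 (PTPRE, PPP2R2D, STK32C and LRRC27) had a different leading transcript in the 2 lines, against 18.2% of all such tested genes. In 8 members the share of some transcript differed by more than 20 percentage points, against 27.3% of all such tested genes, so neither count stands apart from the background. Transcript values are estimates that divide reads between overlapping transcripts, so they are less certain than the gene values.

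PTPRE showed the difference by start site. Its transcripts that begin at 129705325, which include the receptor form of the phosphatase (NM_006504), summed to 6.17 FPKM in H2087 and to 1.32 in H596. Those that begin inside the gene at 129845813, which include the cytosolic form (NM_130435), summed to 1.14 and 1.07. The share of the first start was 80.6% in H2087 and 51.0% in H596, and that of the inner start 14.9% and 41.5%. The lower PTPRE level of H596 was thus carried by the first start, with a ratio of 4.69, and the inner start had a ratio of 1.06.

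STK32C showed the same kind of split. Its most upstream start, at 134145379, summed to 6.35 in H2087 and 5.38 in H596, and its share was 26.9% and 71.4%. The other 3 starts summed to 17.3 and 2.16. The transcripts of the upstream start rested on 208 and 211 counts, of 1880 and 462 for the gene. Those with counts were short, from 599 to 1041 bases, and the longer one from that start (NM_001318878, 2167 bases) had 0 counts in both lines. Only the signal of these short transcripts was thus close to equal. FPKM divides by length, so their share is larger by FPKM than by counts. For LRRC27, at an FPKM of only 1.15 and 0.939, the most upstream start had 0.319 and 0.678 and the leading transcript rested on at most 175 counts. PPP2R2D changed its leading transcript between 2 that share 1 start (NR_033191 and NM_018461), and the shares of its starts differed by 1.16 percentage points.

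Some members kept their leading transcript and differed in the rest. CTBP2 had a ratio of 6.72 at its most upstream start (126849630), with 14.5 and 2.16, and one of 2.80 at its main start (126849110), with 38.0 and 13.6. Its start at 126847687 had 7.43 and 5.46, a ratio of 1.36. The transcript of CTBP2 that encodes RIBEYE, the synaptic ribbon protein (NM_022802), had 0 counts in H2087 and 2 in H596. BUB3 had its leading transcript at 81.8% in H2087 and 65.2% in H596, and PAOX at 59.5% and 99.8%, the latter at a low level.

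**Figure D5:**
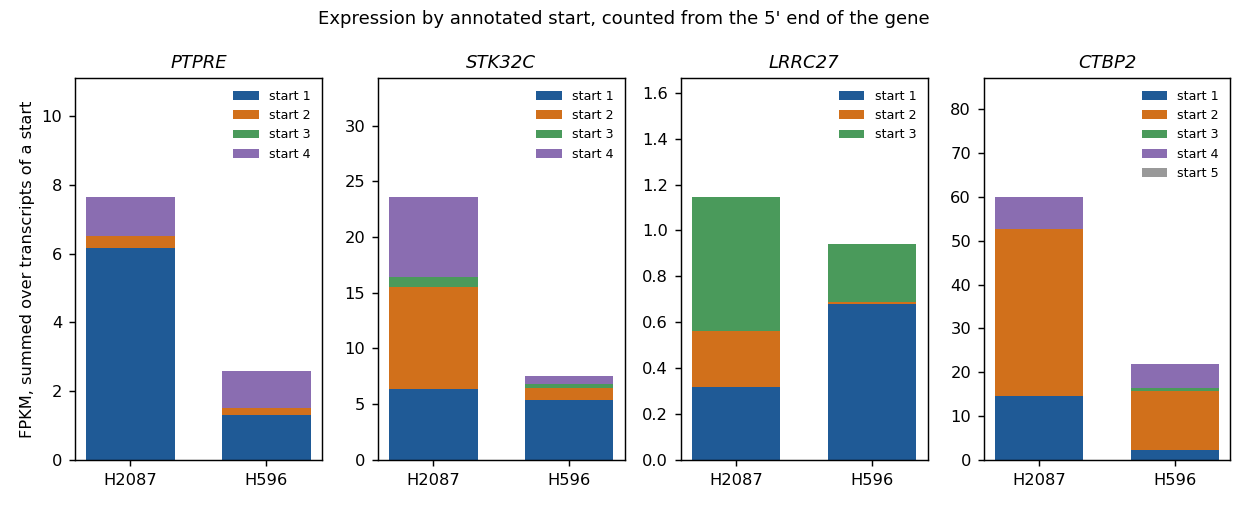
FPKM of PTPRE, STK32C, LRRC27 and CTBP2 in each library, stacked by annotated start and numbered from the 5' end of the gene, each panel on its own linear axis from 0. The bar of start 1 is nearly as tall in H596 as in H2087 for STK32C (5.38 and 6.35) and much shorter in H596 for PTPRE (1.32 and 6.17) and CTBP2 (2.16 and 14.5).

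Pairs of members that start back to back are shown next, because both genes of such a pair read outward from one short stretch of DNA. IKZF5 and ACADSB differed by -0.96 and -0.68, both lower in H596. UROS and BCCIP, whose starts are 266 bases apart, differed by 0.04 and -2.03. STK32C and LRRC27, with 234 bases between them, differed by -1.53 and -0.15 as whole genes. The STK32C start that faces this stretch, at 134145379, had 6.35 FPKM in H2087 and 5.38 in H596. The facing LRRC27 start, at 134145614, had 0.319 and 0.678, so the whole-gene values do not describe these starts. The stretches between them, read on the plus strand of hg19, carry capitals at GC boxes, CCAAT boxes, hypoxia cores and YY1 cores (CCATNTT).
IKZF5 to ACADSB, chr10:124768367-124768428: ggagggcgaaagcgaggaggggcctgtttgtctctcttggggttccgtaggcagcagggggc
UROS to BCCIP, chr10:127511838-127512103: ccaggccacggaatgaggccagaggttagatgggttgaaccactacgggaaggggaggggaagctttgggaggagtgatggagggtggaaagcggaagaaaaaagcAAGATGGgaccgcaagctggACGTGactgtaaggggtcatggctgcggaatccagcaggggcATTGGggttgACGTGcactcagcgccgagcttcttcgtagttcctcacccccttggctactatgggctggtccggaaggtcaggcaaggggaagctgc
STK32C to LRRC27, chr10:134145380-134145613: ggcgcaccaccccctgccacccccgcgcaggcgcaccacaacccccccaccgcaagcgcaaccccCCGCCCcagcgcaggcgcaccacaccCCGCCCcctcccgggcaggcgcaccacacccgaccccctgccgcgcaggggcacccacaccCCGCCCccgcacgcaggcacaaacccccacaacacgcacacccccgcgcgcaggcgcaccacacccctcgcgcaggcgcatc
The stretch between UROS and BCCIP held 2 hypoxia cores, 1 CCAAT box and 1 YY1 core, at 59.0% G and C. That between STK32C and LRRC27 held 3 GC boxes at 78.6%, and the 62 bases shown for IKZF5 and ACADSB, those that no transcript of either covers, held none of the motifs. Across those 266 bases UROS stood at 16.9 and 17.4 and BCCIP at 122 and 29.2, so 1 gene of the pair was close to equal and the other was not.

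Some members overlap, and the strand setting of the counting is not stated, so their values may share reads. BCCIP and DHX32 overlap by 17356 bases on opposite strands, and differed by -2.03 and -0.73. TUBGCP2 and ZNF511 overlap by 268 bases in their protein-coding transcripts and differed by -1.03 and -1.42. A noncoding transcript of TUBGCP2 (NR_046330, 123 counts in H2087 and 23 in H596) reaches further, to 135125841, and so spans most of the ZNF511 locus (135122393-135126666). The loci of DOCK1 and FAM196A overlap by 60733 bases, introns included, and FAM196A had 0 counts in H2087 and 2 in H596. How far the exons of these pairs overlap was not computed.

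The promoters of the members were compared with those of 19209 genes, over the 250 bases before the most upstream start. The members had a median of 71.2% G and C and 23 CpG dinucleotides, against 60.4% and 15 in all genes. The 15 members with no count in either library had 67.2% and 19, against 50.4% and 4 in all genes that were at 0. Silent members of 10q26 thus had promoters of higher CpG content than silent genes at large had at the median. A GC box stood in 67.2% of the members' promoters and 51.4% of all, a CCAAT box in 26.6% and 32.8%, and a hypoxia core in 23.4% and 19.1%. The E-box CAGCTG of the TFAP4 type stood in 10.9% and 12.9%, the YY1 core in 7.81% and 10.4%, and a TATA box (TATAAA) in 9.38% and 9.07%. Neighbouring genes share base composition, so these shares are given with no test.

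Members without expression were counted as well. In both libraries 15 members (23.4%) had no count, against 19.3% of all genes with a protein-coding transcript, and 10 more were detected below the level for testing. Among those at 0 in both were the developmental regulators EBF3, FOXI2, NKX6-2 and VENTX, TCERG1L, the neuropeptide gene NPS, the receptor gene GPR26, and CALY, SPRN and CLRN3. A count of 0 allows up to 3 counts in a library of this size. The 6 members with counts in H2087 and 0 in H596 were JAKMIP3 (241), HMX3 (40), HMX2 (36), UTF1 (20), TEX36 (8) and CPXM2 (6), against 5.30% of all genes with a protein-coding transcript. HMX3 and HMX2, homeobox genes of the inner ear and hypothalamus, lie side by side, and were at least 11.5-fold and 10.2-fold higher in H2087 by the same measure as JAKMIP3. UTF1, a factor of pluripotent cells, was at least 5.09-fold higher. The reverse held for FAM196A with 2 counts and ADGRA1 with 4 counts in H596 and 0 in H2087, against 5.25% of all such genes. The highest FPKM among the untested members was 1.07, for C10orf91 in H2087, beside 0.267 in H596.

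The pathways of the members were read in genes outside the window, from lists set by the named complex or pathway. Over all tested genes, 14.1% were at least 2-fold lower in H596 and 18.0% higher, and the lists are too short to set against these shares. Beside BUB3 (-1.39), the 6 other spindle checkpoint genes had 0 at least 2-fold lower and 0 higher, with a median of 0.04, and BUB1 had 44.9 in H2087 and 30.4 in H596. Beside TUBGCP2 (-1.03), 6 genes of the gamma-tubulin ring likewise had 0 in either direction and a median of -0.18. Beside PPP2R2D (-1.43), 7 other PP2A genes had 0 lower and 3 higher, with a median of 0.68, and PPP2R2B, another regulatory subunit, had 0.0851 and 8.07. Beside ABRAXAS2 (-0.59), 4 BRISC genes had 2 lower, 0 higher and a median of -0.75. They were BRCC3 (0.44), BABAM1 (-0.14), BABAM2 (-1.36) and SHMT2 (-1.54). ABRAXAS2 lay between BABAM1 and BABAM2, above the median of its 4 partners, and the other 3 members lay below theirs. A median of so few genes rests on single partners, and the window was chosen for low values in H596, so nothing is read from this.

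The partners in metabolism and proliferation were mixed. Beside OAT (-2.68), 6 proline and ornithine genes had 2 lower (PYCR1 and ODC1) and 1 higher (PRODH), with a median of -0.37, and ODC1, which starts polyamine synthesis from ornithine, had 126 in H2087 and 22.1 in H596. Beside PAOX (-0.08), 6 polyamine genes, ODC1 again among them, had 2 lower, 0 higher and a median of -0.75. Beside ECHS1 (-0.54) and ACADSB (-0.68), 11 genes of acyl-CoA oxidation had 3 lower, 0 higher and a median of -0.48. Beside UROS (0.04), 7 genes of heme synthesis had 0 in either direction and a median of 0.41. Beside MKI67 (0.18), 6 other proliferation genes had 0 in either direction and a median of -0.20, with TOP2A at 82.5 and 113. Both lines thus carried like levels of MKI67, within the size of difference that the other proliferation genes showed.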

How the data were processed

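RNA-seq data of 1 library each of H2087 and H596 cells were processed. Per the labels, the authors used a kit for stranded mRNA, and their processing notes name bcl2fastq 1.8.4, Trimmomatic, HISAT2 2.0.5 and StringTie 1.3.3b, with hg19. Their tables list 27685 genes and 63714 RefSeq transcripts. Both hold an estimated count per library, deposited as a whole number, and how the authors made it is not stated. Both also hold FPKM, which the authors had already scaled for transcript length and library size.

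Differences of log2(FPKM + 1) were computed with a pseudocount of 1 for genes whose FPKM averaged 1 or more and called at 2-fold. No test between the lines was possible with 1 library each. Intervals were 95% Wilson intervals (scipy 1.17.1), and where no count was seen up to 3 were allowed for. Counts of 46961500 and 55387847 per library set the precision. Members and gene lists were chosen with earlier results of these data known. Values in full were given for the 10 highest members in either library, the members past 2-fold (the 15 largest in 1 direction), those at 0 in 1 library only with an FPKM of at least 1 in the other, those whose leading transcript differed, and those nearest to GLRX3 and at the window's ends. Others were named after their values were seen. Alternatives were TPM, TMM scaling (edgeR 4.0.16), centring, other pseudocounts, filters, folds and windows, and sums over protein-coding transcripts. Sequences came from GRCh37, the build of the files, and gene strands from GENCODE. The calls and intervals were tested on simulated counts that held counting error only. Differences between cultures or libraries were not simulated, so this does not show how reliable a call between the lines is.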

Additional observations from a re-analysis of the deposited data

Results flagged for a closer look

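Genes of the window without a protein-coding transcript were not among the members, and 6 of 25 had more than 3 estimated counts in a library, more than a library with none could hide, which is why they are listed. LOC399815, next to FAM24B, had 235 counts in H2087 and 133 in H596. LOC283038 had 6 and 5 counts, and FLJ37035, near EDRF1, had 59 and 123. LINC00959, which ends before GLRX3, had 0 counts in H2087 and 104 in H596, the direction opposite to that of GLRX3. LINC01166 had 0 and 157 counts, and LINC01167, which overlaps it, had 14 and 30. Of the 25 genes, 17 had no count in either library.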

How the results depend on the processing

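No paired analysis was possible because H2087 and H596 had 1 library each, so leaving out a library was not possible either. Of 85 alternative values of the summary results, 60 stayed near the reported value, 25 moved and 0 changed sign, and the cause was not tested beyond what each setting does. A median stayed near if it lay within the counting interval of the gene in the middle, and a count if its ratio to the reported count was within a set limit. With a mean FPKM of at least 10, which leaves 17 members, 9 were at least 2-fold lower, 0 higher and 14 below 0. Of all genes at that level, 13.7% were at least 2-fold lower and 15.4% higher. The medians at that level were -1.03 (members), -0.85 (before GLRX3), -1.42 (after GLRX3) and -0.57 (rest of chromosome 10), and 1 leading transcript differed. With no filter those 4 medians were -0.41, -0.46, -0.28 and -0.021. The median after GLRX3 was -0.89 with TPM, -1.15 with TMM scaling, -1.14 with centring and -0.71 with a mean FPKM of at least 0.1. At 3-fold 6 members were lower and 1 higher, against 7.22% and 8.71% of all tested genes. With the window shortened by 1 Mb at each end 24 members were tested, of which 9 were 2-fold lower and 18 below 0. With it widened by 1 Mb at each end 43 were tested, of which 3 were higher. The shares of all tested genes, 14.1% lower and 18.0% higher, do not depend on the window. In H2087, 6 members reached an FPKM of 50, 1 reached 200 and 7 a TPM of 100, and in H596 2 reached an FPKM of 50 and 2 a TPM of 100. The shares of all genes at these levels were not computed, so nothing is read from these counts. Centring and TMM moved the 2-fold shares of all tested genes to 16.2% and 16.3% lower and 15.6% and 15.6% higher. TPM moved them to 12.7% lower and 24.2% higher, and a pseudocount of 0.1 to 16.0% and 20.9%. With TPM the median of the rest of chromosome 10 was -0.22, against -0.36 as reported. Of the 17 members past 2-fold, all 102 values under 6 settings kept their sign, and 1 (TUBGCP2 with TPM, -0.89) fell under 2-fold. With a pseudocount of 0.1 low genes differed more, such as NKX1-2 (-5.41), DPYSL4 (4.63) and ADAM8 (-3.17). Depth limits the members with few counts, such as NKX1-2 in H596 and DPYSL4 in H2087.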
